A study of Mus musculus with 4 samples.

Results

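The proliferating cells described here were 1 of 21 cell types that the authors named among immune cells sorted from mouse liver and lung, under the annotation "Prolifelation cell". They were taken as the rows of the authors' marker table with that name. These rows listed 513 genes as higher in the type than in all other cells, of 1679 genes listed for any type and of 2000 genes tested, a share of 25.6% of the genes tested and 30.6% of those listed. A row is called a listing here, meaning 1 gene in 1 type. The direction of every listing was fixed by the way the table was made, and no test was run on it.

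All cells came from wild-type BALB/c mice aged 8 weeks that received intraperitoneal injections on 5 days. The 4 libraries formed 4 groups of 1 library each. The groups rIL-33 liver and rIL-33 lung received 0.5 µg of recombinant IL-33, a cytokine that activates group 2 innate lymphoid cells (ILC2s), and the groups PBS liver and PBS lung received the buffer alone. Cells negative for lineage markers and positive for CD127, Thy1 and ST2, the IL-33 receptor encoded by Il1rl1, were sorted and profiled by droplet-based sequencing of transcript 3′ ends. The table was made from the 4 libraries together, so treatment and organ were not compared, no value had a replicate, and depth was unknown.

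Proliferating cells pass from G1 through S phase, in which the genome is copied, to G2 and M, in which the copies are condensed, attached to the spindle and separated. Genes for DNA synthesis are switched on by E2F factors near the entry to S phase, and genes for mitosis are switched on later, largely through promoters that carry a CHR element together with CCAAT boxes. In lymphocytes these programs accompany clonal or cytokine-driven expansion.

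For each listed gene the table gave 2 shares, that of the type's cells above 0 for the gene and that of all other cells above 0 for it. The type held 6.23% of all cells, as solved from these shares (standard error 0.00695 percentage points, which covers rounding of the shares only). It was the third largest type, after ILC2 with 43.2% and gdT_TypeI with 11.7%, and lay close to gdT_Naive with 6.08%. Its list of 513 genes was the longest of the 21. Of these genes, 235 (45.8%) were listed for no other type, compared with 36.8% of the list of Endothelium cell and 21.8% of the list of Basophil, the next highest.

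Across the 513 genes the share inside the type ran from 47.7% to 100% with a median of 85.3%, and the share in all other cells from 5.7% to 99.8% with a median of 44.4%. The difference between both shares had a median of 36 percentage points, compared with 15.7 points over the 3909 listings of the other 20 types together. By type it lay below Endothelium cell with 45.2 points and Macrophage with 41.7. The share inside exceeded the share outside for every one of the 513 genes, whereas it did not in 723 listings (18.5%) of the other types. The 235 genes listed for no other type were less widespread, with medians of 74.0% inside and 29.2% outside, than the 278 shared genes, with medians of 92.7% and 56.4%. At least 90% of the type's cells were above 0 for 200 genes, but 28 genes were also above 0 in at least 90% of all other cells. The assay behind the shares was not stated. A share is therefore the share of cells above 0 in that assay, which need not be the share of cells with a detected transcript.

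**Figure D1:**
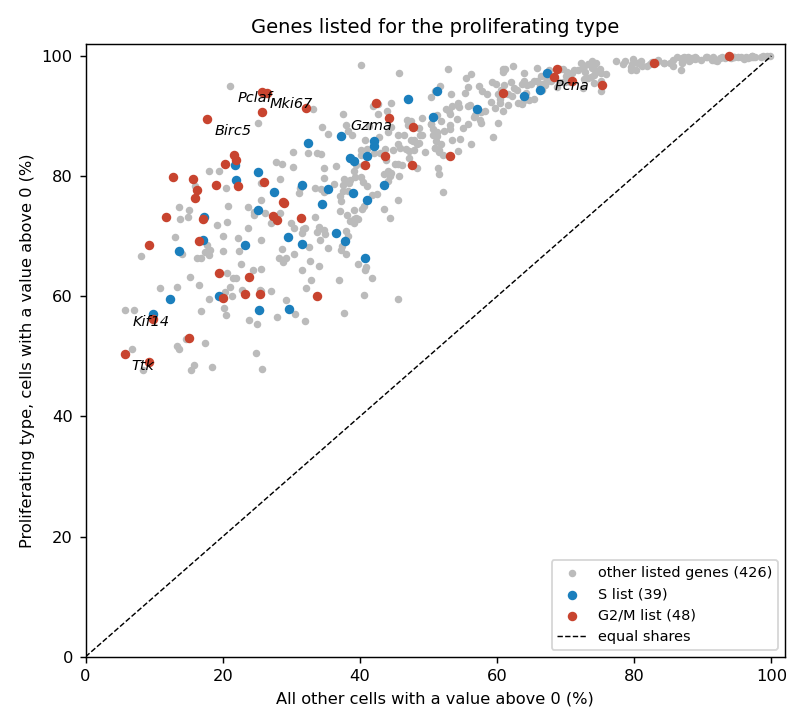
Share of cells above 0 for a gene in the proliferating type (vertical axis, %) against the share in all other cells (horizontal axis, %), 1 point per gene for the 513 listed genes, with the 39 S list genes in blue, the 48 G2/M list genes in red and the other 426 genes in grey. Every point lies above the dashed line of equal shares, and the G2/M genes reach the lowest shares outside, down to 5.7% for Ttk.

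The study's marker Birc5, on chromosome 11 (117849251 to 117855743, plus strand, GRCm38), encodes survivin, a subunit of the chromosomal passenger complex. Birc5 was above 0 in 89.5% of the type's cells and in 17.7% of all other cells, and it was listed for no other type. From these shares and the size of the type, 25.2% of all cells above 0 for Birc5 lay in the type. The second marker, Gzma, on chromosome 13 (113093825 to 113100981, minus strand, GRCm38), encodes the cytotoxic granule protease granzyme A. Gzma was above 0 in 90.4% of the type's cells and in 37.5% of all other cells. Unlike Birc5 it was shared, since NK listed it with 89.6% and CD8_Effector with 58.1% of cells, and only 13.8% of the cells above 0 for Gzma lay in the proliferating type. Gzma was also listed for a subcluster of the ILC2s, numbered 4, at 25.8% inside and 9.7% outside, in a table on another scale.

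The label was set against lists of genes that act in the cell cycle. Of 297 genes in 10 lists by role, 233 were listed for some type and 222 for the proliferating type, of which 142 were listed for no other type. The background for that count is 513 of 1679 listed genes. A standard S phase list of 43 genes had 39 listed for the type, and a standard G2/M list of 54 genes had 48. The authors named the types from their marker genes, so these counts restate what the label rests on and do not support it. Medians of the listed S genes were 77.8% inside and 35.3% outside, and those of the G2/M genes were 79.3% inside and 25.8% outside. Of the cells above 0 for a gene, a median of 12.7% lay in the type for the S genes and 16.2% for the G2/M genes.

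The 15 genes with the largest difference between both shares were all listed for no other type. Pclaf, which encodes a PCNA-binding factor, led with 95.0% inside and 21.1% outside, a difference of 73.9 points. Birc5 came next, followed by Mki67, which encodes the Ki-67 coat protein of mitotic chromosomes, with 94.0% and 25.8%. Cks1b, a subunit of cyclin-dependent kinases, had 93.9% and 26.4%. The rest were genes of mitosis. Ube2c, the ubiquitin-conjugating enzyme of the anaphase-promoting complex, was above 0 in 79.5% and 15.6% of cells. Outside the proliferating type, Hmmr and Ccnb2 were the rarest of the 15, at 11.8% and 12.8%.

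**Figure D2:**
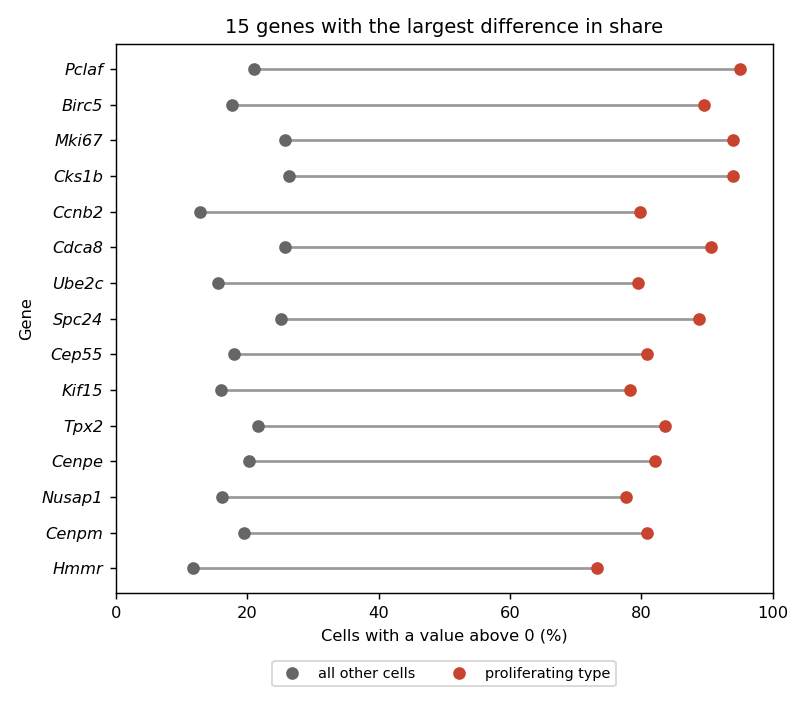
Share of cells above 0 for a gene (horizontal axis, %) in the proliferating type (red) and in all other cells (grey) for the 15 genes with the largest difference, 1 line per gene (vertical axis). Shares inside lie between 73.2% for Hmmr and 95.0% for Pclaf, and shares outside between 11.8% and 26.4%.

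Promoters of the phase genes were examined next for the elements named above. The windows were the RefSeq promoters of GRCm38.p6, from 250 bases before to 50 bases after each start site, and 430 of the 513 genes had at least 1 window. Both strands were searched for the CHR element TTTGAA, for CCAAT and for the E2F site as TTTCCCGC or TTTGGCGC, and matches of different motifs overlapped in 3 windows of the listed genes. A CHR element was found in 32 of 42 listed G2/M genes with a window (76.2%), in 6 of 29 S genes (20.7%) and in 20.2% of all genes with a promoter. Over the 32 genes its median distance from the start site was 22 bases, and in 26 of them it lay within 50 bases. An E2F site was found in 9 of the 29 S genes (31.0%), in 4.76% of the G2/M genes and in 1.80% of all genes. CCAAT was found in 78.6% of the G2/M genes, 69.0% of the S genes and 41.1% of all genes. Among all 430 listed genes the shares were 27.7% for the CHR element, 54.9% for CCAAT and 13.5% for the E2F site, compared with 16.1%, 40.7% and 2.14% among genes listed only for other types. A match is a match of letters and says nothing of binding. Most genes of both standard phase lists were listed for the type. The contrast between S and G2/M genes is therefore a property of those lists and no result about these cells.

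**Figure D3:**
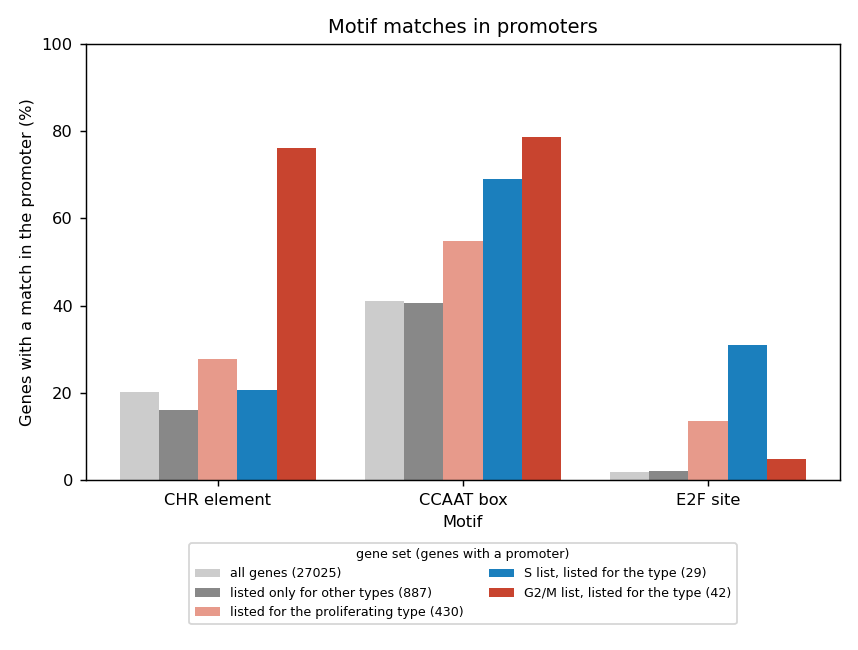
Share of genes with at least 1 match in a RefSeq promoter window (vertical axis, %) for the CHR element, the CCAAT box and the E2F site, in 5 gene sets. The CHR element stands at 76.2% in the listed G2/M genes and 20.7% in the listed S genes, and the E2F site at 4.76% and 31.0%.

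Of the 10 listed G2/M genes with a CHR element that had the largest difference in share, 9 are shown to let the element and its surroundings be compared. Each line gives 30 bases on the strand of the gene, 5′ to 3′, with the element in capitals (TTTGAA, or its reverse complement TTCAAA) and the position in GRCm38.p6.
Mki67 (chr7:135716460-135716489, minus strand): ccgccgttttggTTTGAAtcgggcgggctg
Cks1b (chr3:89418291-89418320, minus strand): gcgggcggtgtgTTTGAAagcgaggccaaa
Ccnb2 (chr9:70421533-70421562, minus strand): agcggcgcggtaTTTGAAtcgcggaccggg
Ube2c (chr2:164769888-164769917, plus strand): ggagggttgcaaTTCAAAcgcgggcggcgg
Hmmr (chr11:40733412-40733441, minus strand): agttgaggtaaaTTTGAAttcaggcgagct
Cdk1 (chr10:69352910-69352939, minus strand): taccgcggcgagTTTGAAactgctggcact
Kif11 (chr19:37376351-37376380, plus strand): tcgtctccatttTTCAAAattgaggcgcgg
Cdca3 (chr6:124830194-124830223, plus strand): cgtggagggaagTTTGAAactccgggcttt
Top2a (chr11:99024195-99024224, minus strand): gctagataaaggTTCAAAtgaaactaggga

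The element lay on the gene's own strand in 20 of the 32 genes, and it lay before the start site in 17. The 9 listed S genes with an E2F site are shown in the same way, with the site in capitals, as the counterpart for S phase.
Dtl (chr1:191575534-191575563, minus strand): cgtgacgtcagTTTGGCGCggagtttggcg
Cdc6 (chr11:98908002-98908031, plus strand): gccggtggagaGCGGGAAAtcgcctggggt
Hells (chr19:38930917-38930946, plus strand): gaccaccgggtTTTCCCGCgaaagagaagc
Casp8ap2 (chr4:32615283-32615312, plus strand): aagtaccagagTTTGGCGCcaactggaatc
Mcm6 (chr1:128359734-128359763, minus strand): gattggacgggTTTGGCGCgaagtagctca
Mcm5 (chr8:75109349-75109378, plus strand): caagaactttcGCGCCAAAacgtccagcct
Pola1 (chrX:93632275-93632304, minus strand): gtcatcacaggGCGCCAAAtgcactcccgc
Pold3 (chr7:100121467-100121496, minus strand): gagcgaagctgTTTCCCGCcggcgggagct
Cdca7 (chr2:72476137-72476166, plus strand): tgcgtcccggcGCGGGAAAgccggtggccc

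In these 9 genes the site lay before the start site in 8, at a median distance of 71 bases. Whole windows are shown for Ccnb2, a mitotic gene whose window held both CHR elements and CCAAT boxes, and for Pclaf, the gene with the largest difference. In Ccnb2, the start site follows base 250 of the window, the capitals mark CHR elements at 167 bases before and 4 bases after the start site, and CCAAT boxes at 87, 54 and 21 bases before it. In Pclaf, the capitals mark CCAAT boxes at 66 and 41 bases and an E2F site at 5 bases before the start site. Both windows were chosen for their matches. Of the study's markers, the window of Birc5 held no match to any of the 3 motifs, and that of Gzma held a CHR element 69 bases before and a CCAAT box 10 bases after the start site.
Ccnb2 (chr9:70421505-70421804, minus strand): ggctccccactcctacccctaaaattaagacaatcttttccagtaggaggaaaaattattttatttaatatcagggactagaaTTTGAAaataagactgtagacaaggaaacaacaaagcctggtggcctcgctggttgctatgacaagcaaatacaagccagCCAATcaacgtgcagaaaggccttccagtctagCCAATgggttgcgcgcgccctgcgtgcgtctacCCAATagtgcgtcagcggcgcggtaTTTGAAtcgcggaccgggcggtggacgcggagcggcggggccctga
Pclaf (chr9:65890073-65890372, plus strand): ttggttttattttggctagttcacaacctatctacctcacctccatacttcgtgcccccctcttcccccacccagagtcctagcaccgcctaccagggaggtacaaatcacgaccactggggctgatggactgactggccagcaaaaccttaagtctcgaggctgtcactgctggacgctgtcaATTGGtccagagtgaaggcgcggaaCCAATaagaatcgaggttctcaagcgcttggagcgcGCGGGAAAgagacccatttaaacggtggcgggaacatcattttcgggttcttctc

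The roles of the listed genes are described in the order in which they act. Of all genes listed for any type, 30.6% were listed for this one. The list sizes below also hold genes listed for no type. Of genes listed for any type, 14 of 16 for nucleotide supply and 36 of 41 for cyclins, kinases and regulators were listed for this one. The counts were 29 of 32 for the spindle list and 16 of 17 for condensin, cohesin and topoisomerase. For licensing, the fork, histones and chromatin, the centromere and kinetochore, the passenger complex and cytokinesis, and DNA repair, every gene listed for any type was listed for the proliferating type. For origin licensing and the replicative helicase, 15 of 18 genes were listed, with medians of 78.5% inside and 38.5% outside. Mcm7, a helicase subunit, was above 0 in 87.5% of the type's cells and in 38.2% of all others. The 3 other genes of the list with the largest differences were rarer on both sides. Cdc45 had 69.4% inside and 17.2% outside, Mcm10 had 63.2% and 15.2%, and Cdc6 had 59.5% and 12.3%. These 3 were chosen for their differences, and were among the 5 genes of the list that no other type listed. Dbf4, which activates the origin-firing kinase, had 84.2% and 54.3% and was listed for 5 other types (chosen after its values were seen).

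At the replication fork, 32 of 33 genes were listed, 18 of them for no other type, and the share outside ran from 19.4% for Dscc1 (chosen after its values were seen) to 67.3% for Pcna. Uhrf1, which couples replication to the copying of DNA methylation, was above 0 in 81.8% and 21.8% of cells. The checkpoint adaptor Clspn had 77.3% and 27.5%, and the chromatin remodeller Hells had 78.5% and 31.6%. Pcna, the sliding clamp itself, was widespread in all other cells as well, with 97.1% inside and 67.3% outside (chosen after its values were seen).

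For nucleotide supply, 14 of 18 genes were listed and Cad and Shmt2 were listed for other types only. Rrm2, the regulated subunit of ribonucleotide reductase, had 79.3% inside and 22.0% outside, and its partner Rrm1 had 86.7% and 37.3%. Tyms, thymidylate synthase, had 80.7% and 25.1%, and thymidine kinase Tk1 had 73.6% and 24.5%. Among histones and chromatin proteins, 20 of 40 genes were listed and only 4 were listed for no other type. Their medians were the highest of the 10 roles, at 96.1% inside and 62.4% outside. Lmnb1, a subunit of the nuclear lamina, had 97.2% and 45.7%, and Ezh2, the histone H3 methyltransferase, had 92.0% and 42.7%. The histone chaperone Asf1b had 84.1% and 30.2%, and the HMG box protein Hmgb3 had 81.7% and 36.5%. None of the Hist1 and Hist2 genes in the list was listed for any type. They may not have been among the 2000 genes tested, so nothing about the cells was read from this.

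Among cyclins, cyclin-dependent kinases and their regulators, 36 of 46 genes were listed, 27 of them for no other type. The leading 4 were Cks1b, Ccnb2 and Ube2c, described above, and Ccna2, the S and G2 cyclin, which had 74.9% inside and 13.6% outside. Ccnb2, a B-type cyclin of mitosis, had 79.8% and 12.8%, and 29.3% of the cells above 0 for it lay in the type. Ccnd1, Ccnd2, Cdk2, Cdk6 and Wee1 were listed for other types only. Of these, Ccnd1 and Ccnd2 encode D-type cyclins that act in G1 with Cdk6, Cdk2 acts at the entry to S phase, and Wee1 restrains mitotic entry.

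For the centromere, kinetochore and checkpoint, 26 of 38 genes were listed, and 22 of them were listed for no other type. Spc24, of the microtubule-binding Ndc80 complex, had 88.8% inside and 25.1% outside. The kinesin Cenpe had 82.1% and 20.3%, the centromere protein Cenpm 80.9% and 19.5%, and the scaffold Knl1 74.4% and 15.1%. The checkpoint kinases Bub1 and Ttk were rare outside, with 68.5% and 9.3% for Bub1 and 50.4% and 5.7% for Ttk (both chosen after their values were seen). Of all cells above 0, 32.9% for Bub1 and 37.0% for Ttk lay in the type.

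All 17 genes of the passenger complex and cytokinesis were listed, 14 of them for no other type. Besides Birc5, the passenger subunit Cdca8 had 90.6% inside and 25.7% outside. Cep55, needed for the final cut between daughter cells, had 80.8% and 18%, and Racgap1, which acts at the central spindle, had 91.2% and 33.1%. The kinesin Kif14 had 57.8% and 5.8% (chosen after its values were seen), and 39.8% of the cells above 0 for it lay in the type, the highest value among the 513 genes. Even for this gene most cells above 0 lay outside the type.

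Of 39 genes for the spindle, tubulins and kinesins, 29 were listed. The spindle kinesin Kif15 had 78.3% inside and 16.0% outside, the microtubule nucleator Tpx2 had 83.6% and 21.7%, the microtubule binder Nusap1 77.7% and 16.2%, and Hmmr 73.2% and 11.8%. The microtubule destabilizer Stmn1 was above 0 in 98.5% of the type's cells, but it was shared with MMP_LMPP at 91.9% and Endothelium cell at 92.8% (chosen after its values were seen). Of 18 genes for condensin, cohesin and topoisomerase, 16 were listed, with Top2a at 91.3% inside and 32.1% outside and the condensin subunits Ncapg at 69.8% and 13.0% and Ncapg2 at 76.0% and 25.6%. For DNA repair, 17 of 30 genes were listed. Neil3, a DNA glycosylase, had 66.7% inside and 8.1% outside, so 35.4% of the cells above 0 for it lay in the type. The exonuclease Exo1 had 67.6% and 13.7%, and the translocase Rad54l had 68.6% and 17.7%.

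**Figure D4:**
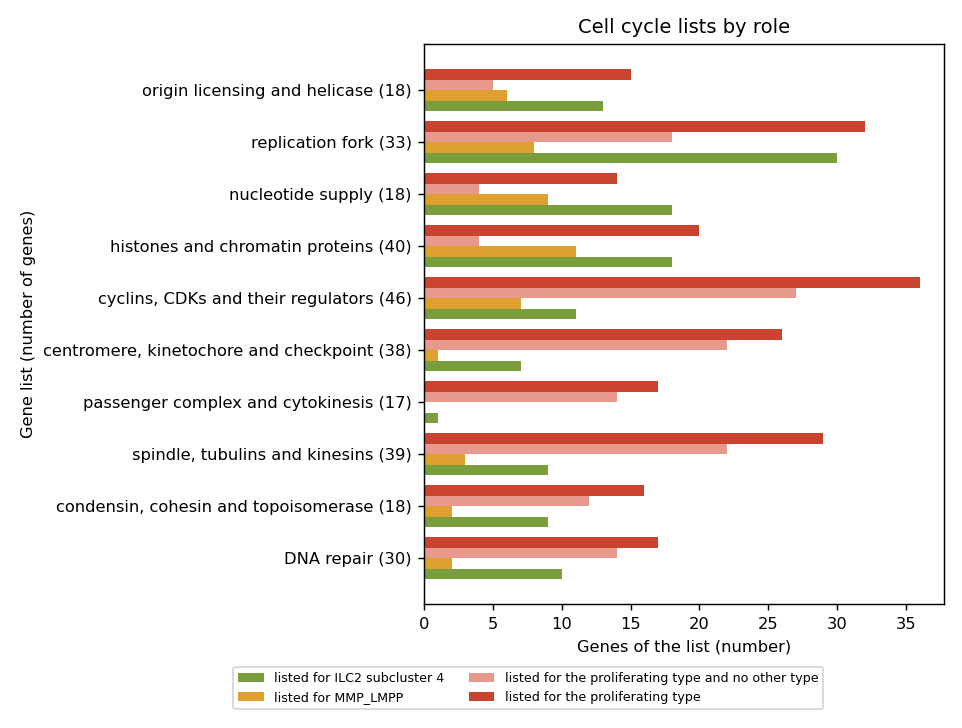
Number of genes (horizontal axis) in each of 10 cell cycle lists by role (vertical axis, list size in parentheses) that were listed for the proliferating type, for it and no other type, for MMP_LMPP and for ILC2 subcluster 4. For the passenger complex and cytokinesis the counts are 17, 14, 0 and 1, and for the replication fork 32, 18, 8 and 30.

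Of the other 20 types, MMP_LMPP shared the most genes with the proliferating type. MMP_LMPP is the authors' label for the smallest type, with 0.387% of cells and a list of 20.1% of the genes tested. The 160 genes in both lists made up 39.7% of the 403 genes of MMP_LMPP and 31.2% of those of the proliferating type. The next, CD8_Naive, shared 55 genes (27.8% and 10.7%), and the type ILC2 shared 1 of its 136. Of the shared genes, 93 had the higher share inside the proliferating type, 63 inside MMP_LMPP and 4 equal shares, with medians of 94.2% and 93.1%. MMP_LMPP listed 10 genes of the S list and 0 of the G2/M list. All 5 Mcm genes that both listed, which encode helicase subunits, are given here (apart from Mcm7, chosen after their values were seen). Mcm2 was above 0 in 84.6% of MMP_LMPP and 77.2% of proliferating cells, Mcm4 in 94.3% and 85.9%, and Mcm6 in 86.2% and 83.1%. Mcm3, in 64.2% and 88.4%, and Mcm7, in 70.7% and 87.5%, had the higher share in the proliferating type. Both types compare with all other cells, which include each other, so the overlap was given as counts only.

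The authors also clustered the cells kept as ILC2s into 10 subclusters and listed genes for each against all other ILC2s. Subcluster 4, with 9.23% of ILC2s, had 802 listed genes, or 5.59% of a median of 14354 genes tested. Of its genes, 325 were also listed for the proliferating type, which is 40.5% of the subcluster's list and 63.4% of the type's list. Different numbers of genes were tested for types and subclusters, so some genes could not be in both lists. The 325 were 72.1% of the 451 subcluster 4 genes listed for any type, beside 30.6% of all such genes. They were 90.8% of the 358 genes of the type that were listed for any subcluster. The S list had 32 genes in subcluster 4 and the G2/M list 14, compared with 39 and 48 in the proliferating type. When at least 50% of cells inside the cluster had to be above 0, a limit applied to the phase lists after seeing the data, subcluster 4 kept 21 S genes and 10 G2/M genes and the proliferating type 39 and 47. No other subcluster listed more than 1 S gene or 3 G2/M genes. By role, subcluster 4 listed 30 of 33 fork genes and 13 of 18 licensing genes, but 7 of 38 centromere and kinetochore genes and 1 of 17 genes for the passenger complex and cytokinesis. That gene was Cdca8, at 34.6% inside and 4.5% outside the subcluster, and Birc5 was not listed.

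**Figure D5:**
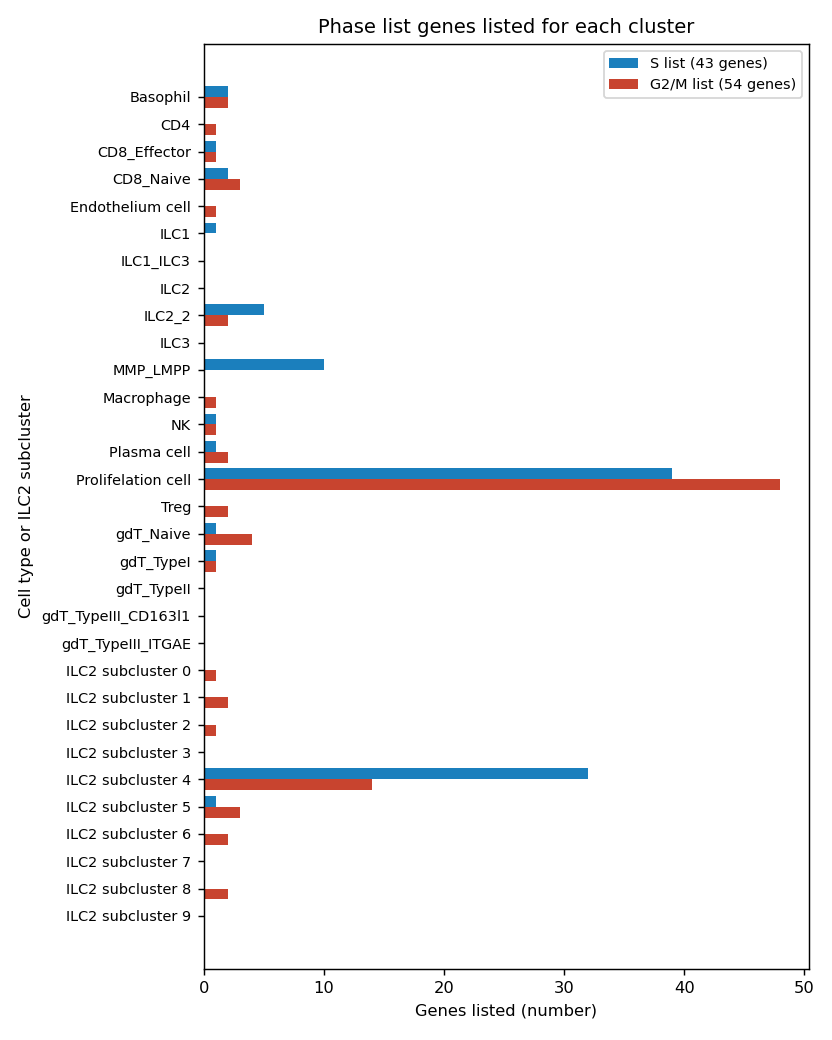
Number of S list genes (blue) and G2/M list genes (red) listed (horizontal axis) for each of the 21 cell types and 10 ILC2 subclusters (vertical axis). The proliferating type, spelled as in the annotation, has 39 and 48, ILC2 subcluster 4 has 32 and 14, and MMP_LMPP has 10 and 0.

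The counts for subcluster 4 were next divided by how widespread each gene was outside the proliferating type, since every listing had at least 25% of cells above 0 either inside or outside the cluster. Among listed genes with a share outside under 25%, 5 of 9 S genes and 1 of 22 G2/M genes were also listed for subcluster 4. Between 25% and 50% the counts were 22 of 24 and 8 of 18, and at 50% or more they were 5 of 6 and 5 of 8. Over the type's whole list, 63.4% of the genes were also listed for subcluster 4, a share that was not divided by range. A smaller share of the G2/M genes than of the S genes was thus listed in each range, a description with no test. At 50% or more this rests on only 6 S genes and 8 G2/M genes, and 5 of 8 is close to the share over the whole list. No difference between the phases was read from that range. For the 32 S genes in both lists, the median share inside subcluster 4 was 57.3% (28.0% to 84.8%) and outside it 11.8%. Mcm5, for example, was above 0 in 72.5% of subcluster 4 and 11.1% of other ILC2s, and in 83.3% and 41.0% in the cell type table (chosen after its values were seen). For the 14 G2/M genes in both, the medians were 69.7% and 21.4%, with Mki67 at 54.7% and 15% and Top2a at 71.5% and 26.2%. Shares of both tables were not on the same scale. The 116 genes listed for the type ILC2 and in the subcluster table had a median share of 75.2% in that type but 43.3% over all ILC2s in the subcluster table. The paper subclustered only cells kept as ILC2s, and the proliferating type was named apart from ILC2 and ILC2_2, with 43.2% and 1.78% of all cells. The tables hold no cells, so membership in both clusters was not examined cell by cell. The values of both clusters stand side by side without a comparison of size.

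Genes that define other lineages were mostly not listed for the type. None of 21 listed ILC2 genes (of 25) was listed for it, among them Il1rl1, Gata3, Il13, Il5 and Areg, and Il1rl1 was listed for ILC2, ILC2_2 and gdT_TypeII. The same held for 17 αβ T cell genes, 14 γδ T cell genes, 15 B cell and plasma cell genes and 13 myeloid, basophil and endothelial genes listed for some type, beside the 30.6% of all listed genes. A gene not listed may be lower, equal, too rare or not tested, so its share inside the type is not known and no lineage of origin was read from this.

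Of 25 listed NK cell, ILC1 and cytotoxic genes, 3 were listed for the type, a smaller share than the 30.6% of all listed genes. Besides Gzma these were Gzmb, granzyme B, at 94.2% inside and 50.9% outside, and Eomes, a T-box factor of NK cells and CD8 T cells, at 92.2% and 63.0%. Gzmb was also listed for Basophil at 91.9%, NK at 78.1% and CD8_Effector at 53.7%, and Eomes for NK at 86.7%, gdT_TypeI at 62.0% and CD8_Naive at 34.1%. For Gzmb the share outside CD8_Effector was 53.6%, close to that inside. For Eomes the share outside was above that inside for gdT_TypeI, at 65.2%, and for CD8_Naive, at 65.7%. The other 22 were listed for other types only, among them Ncr1 and Klrb1c for ILC1, ILC1_ILC3 and NK, and Prf1 for CD8_Effector, ILC1, NK and gdT_TypeI. Of 12 listed progenitor genes, 3 were listed (also a share below 30.6%), namely the factor Irf8 at 93.2% and 50.4%, the factor Myb at 72.5% and 38.6%, and the surface protein Cd48 at 96.7% and 70.0%. Myb was at 72.4% in MMP_LMPP. ILC2 subcluster 4 listed 5 of the 27 genes of the NK cell, ILC1 and cytotoxic list, in a table that listed 5.59% of the genes tested for it. The part of cytotoxic cells in the type was not tested.

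Of dissociation stress genes, 3 of 18 listed were listed for the type, a smaller share than 30.6%: Nr4a1 at 95.7% inside and 70.7% outside, Hsp90aa1 at 99.3% and 91.8%, and Hspa8 at 100% and 98.8%. None of 11 listed interferon response genes was, also below that share. The 5 genes with the smallest difference in the whole list were Ppia, Ptma, Hspa8, Actg1 and Npm1, each above 0 in at least 97.6% of all other cells. For Ppia, cyclophilin A, the shares were 100% and 99.8%. A share near 100% on both sides gives no measure of level.

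Further families were examined after the listed genes had been seen, so their counts are a description of the list. For each, the share over all genes listed for any type was again 30.6%. Of 54 spliceosome and mRNA processing genes, 28 of 30 listed for any type were listed for the proliferating type, with medians of 98.0% inside and 73.5% outside. The RNA helicase Ddx39 had 95.0% and 51.7%. All 10 listed genes for folding and protein entry at the endoplasmic reticulum were listed for it, but none for it alone, and Sdf2l1, an ER chaperone cofactor, had 92.1% and 44.5%. Of 8 listed centriole and centrosome genes, 7 were listed, each for no other type, including Plk4, the kinase that starts centriole duplication, at 81.8% and 39.4%, and Sass6, a part of the centriole cartwheel, at 77.3% and 34.7%. Enzymes of serine and one-carbon metabolism gave 3 of 5, with Phgdh at 88.5% and 47.0%. The counts were 5 of 8 for glycolysis, 6 of 8 for chaperonin and prefoldin, and 9 of 16 for the nucleolus and ribosome assembly, with Tpi1, triosephosphate isomerase, at 93.6% and 53.3%. Of 10 listed respiratory chain and ATP synthase genes, 9 were listed, and all 9 were above 0 in over 70% of all other cells.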

How the data were processed

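Libraries were assigned to groups from the labels. Per the labels and the methods, the authors aligned the reads with Cell Ranger to mm10, clustered all cells and listed marker genes in Seurat, with the 4 libraries pooled. The deposited shares are a fraction of cells above 0 for a gene, once for the cluster and once for the rest, and are printed as percentages. The authors' deposited log2 fold changes and p-values compare a cluster with all other cells over cells. They were not used, except that the ratio of adjusted to raw p-value gave the number of genes tested. A cluster against the rest of the clustered cells is no test, so none was run. There were 0 unmatched columns of numbers. Neither doublets nor depth could be examined in tables without cells.

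Sizes of the types were solved by least squares from genes listed for at least 2 types (1045 genes, 3788 listings). For each gene, the share outside plus the size times the difference of both shares gives that gene's share over all cells. The solver was tested on simulated data. Python 3.11.15, numpy 2.4.6 and pandas 2.3.3 were used. Gene coordinates came from GENCODE and promoters from RefSeq, both on GRCm38, the assembly of mm10.

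The members and gene lists were chosen with earlier results of these data known, and 8 further lists after the values were seen. Genes named were the study's 2 markers, the 15 with the largest difference, up to 4 per list, the listed members of lineage lists, the 5 with the lowest difference, the 5 with the largest difference among those listed for no other type, and others marked as chosen later. A few items that this rule would name are not reported here. The alternatives were other limits on the shares and other size fits.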

Additional observations from a re-analysis of the deposited data

How the results depend on the processing

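No paired analysis was possible because there was 1 library per group and both tables pooled the libraries. Of 38 alternatives for 13 values, 37 stayed within 1.5 times the reported count or within the error of the reported value. Requiring a share at least 10 percentage points above all other cells left 484 of the 513 genes, and requiring at least 50% of cells inside left 507. The latter limit, which was applied to the phase lists after the data were seen, lowered the S list count of ILC2 subcluster 4 from 32 to 21 and its G2/M count from 14 to 10. The size of the type ran from 6.2283% to 6.234% over 4 other fits. No library could be left out, since the tables pooled all 4. Errors cover rounding only, and depth was unknown.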

Other observations

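The 513 genes also held some genes of the lymphocyte surface. Those given here were picked after their values were seen, from no fixed list, and no lineage was read from them. Ccr10, a chemokine receptor, was above 0 in 90.8% of the proliferating cells and in 43.9% of all others. It was also listed for gdT_TypeIII_ITGAE at 52.8% and for CD4 at 20.5%, the latter below the 47.7% outside CD4. Ly6d, a GPI-anchored surface protein, had 78.1% inside and 20.5% outside, compared with 63.3% in Macrophage, 57.6% in Plasma cell and 29.3% in MMP_LMPP. The NK cell and T cell receptor Cd160 had 87.0% and 35.4%, and the next highest share was 68.9% in ILC1_ILC3. Klra3, a Ly49 receptor of NK cells, had 88.0% and 55.1%, compared with 69.5% in NK. For each of these 4 genes the share was highest in the proliferating cells among the types that listed it. Other genes were higher in another type. Itgb1 stood at 96.5% inside and 98.4% in Endothelium cell, Car2 at 87.3% and 88.0% in the same type, Irf8 at 93.2% and 98.0% in Macrophage, Nr4a1 at 95.7% and 99.2% in MMP_LMPP, and Plac8 at 62.7% inside, below 96.7% in MMP_LMPP and 96.4% in Basophil.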
